A study of Mus musculus with 6 samples.

Results

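The GATA1-TAL1 complex is the assembly of DNA-binding factors and cofactors that runs red cell gene expression. Its transcripts were followed here through 10 genes picked by symbol, out of 34542 genes in the count table: Gata1, Gata2, Tal1, Lyl1, Lmo2, Ldb1, Zfpm1, Gfi1b, Tcf3 and Cbfa2t3. All 10 were listed, all passed the filter on low counts, and all also had exon and intron counts. Polyadenylated RNA of fetal liver cells was sequenced from C57BL/6J mouse embryos, 3 samples lacking the locus of Mir144 and Mir451 (KO, replicates 4, 5 and 6) and 3 with the locus intact (WT, replicates 1, 2 and 3). The age of the embryos, how the allele was made and whether a sample came from a single embryo are not stated in the labels. P-values therefore measure the spread between these samples, part of which may be technical.

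GATA1 binds the DNA word GATA, and TAL1 binds a neighbouring E-box (CANNTG) together with an E protein such as the product of Tcf3. LMO2 bridges the factors, and LDB1 holds the assembly together and joins distant sites by pairing with itself. GATA2 is the progenitor factor that GATA1 displaces as red cells mature, and GATA1 is known in mouse erythroid cells to activate the gene that encodes the 2 microRNAs of this locus. The comparison asks whether the factors upstream of this locus differ in level when the locus is missing.

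The deletion was visible in the counts. Mir144 had 1, 1 and 0 counts in KO replicates 4 to 6, against 51, 47 and 29 in WT replicates 1 to 3. Mir451 had 3, 2 and 4 counts in KO livers, against 323, 446 and 418 in WT livers. Libraries held 40392139 to 44700229 counts in KO and 24659978 to 36082084 in WT, and the 10 genes took 0.245% to 0.295% of them. The tissue is mixed. Summed erythroid markers (8 genes) ran from 14851 to 17522 CPM (counts scaled to a common library size) in KO and from 20169 to 27730 CPM in WT, without overlap. Summed hepatocyte markers (12 genes) ran from 12828 to 46156 CPM in KO and from 8730 to 56304 CPM in WT, highest in KO replicate 6 and WT replicate 2. Summed macrophage markers (6 genes) were 244 to 355 CPM in KO and 214 to 511 CPM in WT, megakaryocyte markers (6) 207 to 335 CPM in KO and 197 to 384 CPM in WT, and endothelial markers (6) 110 to 247 CPM in KO and 83.6 to 248 CPM in WT. Neutrophil markers (6) were 1190 to 2206 CPM in KO and 1695 to 2765 CPM in WT. These 4 lists overlapped between groups, 0 of their genes passed by edgeR or DESeq2 or at an unadjusted edgeR p under 0.05, and no marker was at 0 in a library. Several of these cell types use members of the complex, and their part in the results was not tested. In bulk tissue, fewer cells of a type and less RNA per cell cannot be told apart.

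Matches to the missing microRNAs were sought in these 10 transcripts, and their counts were near the shares of all genes. The mature strands are printed so that the matches can be read against their seeds (bases 2 to 8, in capitals). They come from RefSeq, build GRCm38.p6, chromosome 11, plus strand.
mmu-miR-451a: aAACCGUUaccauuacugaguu
mmu-miR-144-3p: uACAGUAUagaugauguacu
mmu-miR-144-5p: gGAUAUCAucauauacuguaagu
Each seed's complement was sought in 3' untranslated regions (UTRs), taking the longest of each of 21010 annotated genes. The miR-451a word, AACGGTT, is in 0 of the 10 complex genes and in 1.75% of all genes. The miR-144-3p word, ATACTGT, is in 1 of the 10 and in 11.9% of all genes. The miR-144-5p word, TGATATC, is in 0 of the 10 and in 6.13% of all genes. The single match is in Gata2, at position 1505 of a 1538-base UTR, close to its end, on chromosome 6. The match is shown in capitals.
Gata2 UTR site for miR-144-3p: tttaaagtgaATACTGTtaaaaataataaa
A sequence match is a description and does not show that a site is used. Gata2 averaged lower in KO livers, as given below.

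The complex can also act on its own genes, so the words GATA factors favour (AGATAA or TGATAA, either strand) were searched in RefSeq promoter windows from 250 bases before to 50 after each start. Windows were found for 9 of the 10 genes, 14 in all. The words occurred in 4 windows, those of 4 genes, against 18.6% of 32851 windows of all genes. The stretches around them are shown on the strand of the gene, with the match in capitals (TTATCT and TTATCA are the words read on the other strand), build GRCm38.p6.
Tal1, chr4:115056209-115056238, plus strand: ctatagagtcttTTATCTttgagcaattcc
Gfi1b, chr2:28622085-28622114, minus strand: tctgtgaagtttTGATAAgcaaatgtggct
Ldb1, chr19:46037293-46037320, minus strand: gctcaactgtTTATCTggtgggccgcac
Ldb1, chr19:46037253-46037282, minus strand: cgccagccccccTTATCTttctatcccttg
Cbfa2t3, chr8:122699210-122699239, minus strand: acccccaccgcaTTATCActgtgacacagc
These 4 genes did not share a direction of difference: Tal1 and Gfi1b averaged lower in KO livers, and Ldb1 and Cbfa2t3 averaged higher. The E-box word CANNTG was in 9 of the 14 windows and in 72.3% of all windows.

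No gene of the complex passed the test between genotypes, and the changes were small. By edgeR's quasi-likelihood test with Benjamini-Hochberg adjustment over 15105 genes, 0 of the 10 passed an adjusted p of 0.05, while 3.28% of all tested genes did. DESeq2 also called 0 of the 10, with 7.36% of the genes it tested called. At an unadjusted p under 0.05 there were 3 of 10 by edgeR, against 16.6% of all genes by edgeR. DESeq2 had 2 of 10 at this level, for which its share of all genes was not computed. The groups did not overlap for 3 of 10, against 22.7% of all genes. The median log2 change of the 10 was -0.17, against -0.03 for all tested genes, with 6 below 0 and 4 above. All 95% intervals lay between -0.69 and 0.61 on the log2 scale. The 3 genes whose groups did not overlap were Tal1 and Gata2, lower in KO, and Cbfa2t3, higher in KO.

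**Figure D1:**
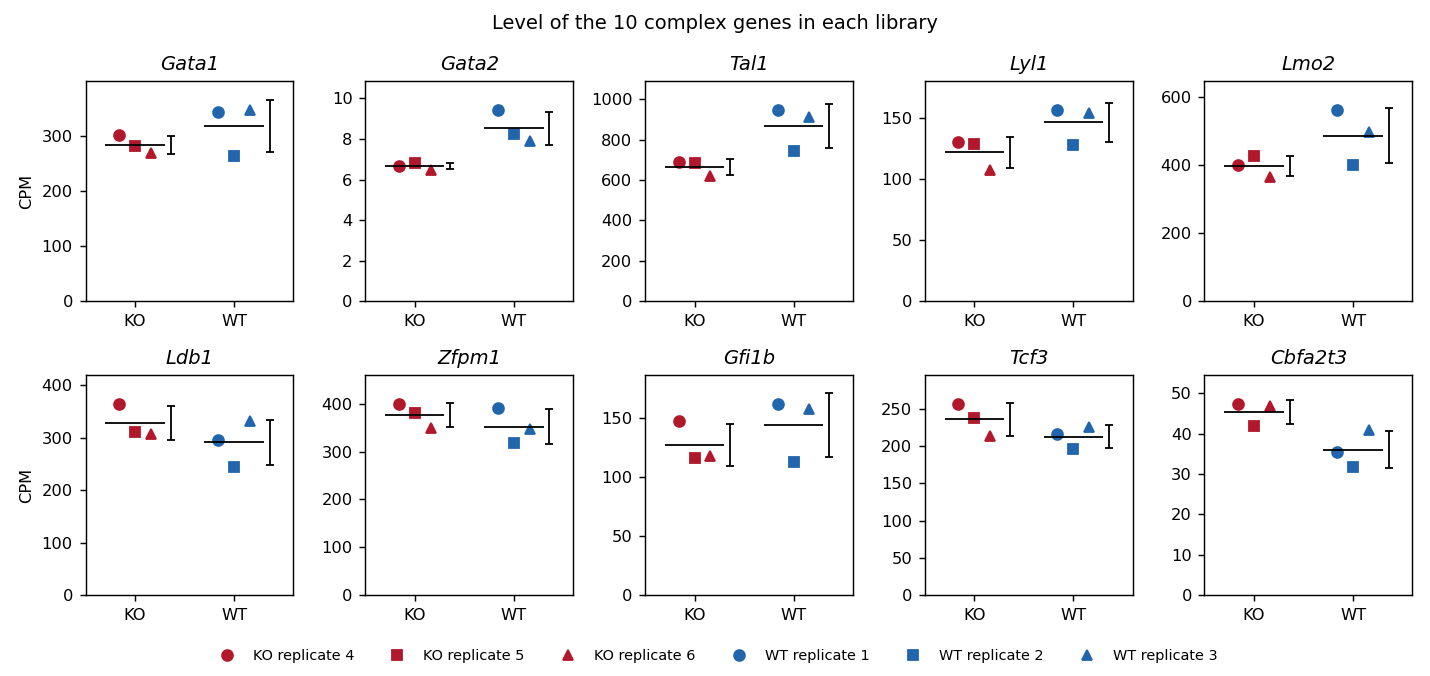
Level (CPM, linear axis from 0) of the 10 genes in each library, KO on the left and WT on the right of every panel, with lines at the means and bars of 1 SD (n = 3 each). KO and WT points separate for Gata2, Tal1 and Cbfa2t3 and mix for the other 7, and WT replicate 2 (blue square) is the lowest WT point for 9 genes.

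The GATA factors come first. Gata1, the master activator of red cell genes, had 301, 281 and 269 CPM in KO replicates 4 to 6, against 342, 263 and 347 CPM in WT replicates 1 to 3. WT replicate 2 lay below all KO libraries, so the groups overlapped. Gata1 averaged 283 ± 16.2 CPM in KO and 317 ± 46.8 CPM in WT (SD, n = 3 each), a log2 change of -0.16 (95% interval -0.47 to 0.14, edgeR adjusted p = 0.645 after Benjamini-Hochberg adjustment).

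Gata2 had 6.69, 6.82 and 6.49 CPM in KO livers, against 9.44, 8.24 and 7.89 CPM in WT livers. Every KO library was below every WT library, and the KO values lay close together. The log2 change was -0.35 (interval -0.68 to -0.03, edgeR adjusted p = 0.253 after Benjamini-Hochberg adjustment), which did not pass the threshold. This rests on 190 to 315 counts per library, the lowest of the set. Gata2 is also used by mast cells, and summed mast cell and basophil markers (6 genes) were 28.5 to 35.0 CPM in KO and 40.03 to 57.7 CPM in WT, again without overlap. Of the 5 tested, 0 passed by edgeR and 1 was lower by DESeq2, against 3.28% and 7.36% of all genes in either direction. At an unadjusted edgeR p under 0.05, 2 were lower, against 8.78% of all genes. The marker Hdc alone averaged 15.9 CPM of this sum in KO and 23.2 CPM in WT, so the sum leans on 1 gene. Summed progenitor markers (6 genes) were 155 to 174 CPM in KO and 176 to 180 CPM in WT. The part of these cells in the Gata2 difference was not tested.

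The balance of the pair was read within each library, where scaling has no role. Gata2 had 2.22, 2.43 and 2.42 counts per 100 of Gata1 in KO replicates 4 to 6, against 2.76, 3.13 and 2.28 in WT replicates 1 to 3. The groups overlapped through WT replicate 3. The log2 ratio was -5.41 ± 0.07 in KO and -5.21 ± 0.23 in WT, a difference of -0.20 (exact permutation test, two-sided p = 0.3, smallest possible 0.1). The mean difference was toward less Gata2 per Gata1 in KO, the opposite of a shift from GATA1 to GATA2. With 3 libraries a group, even the smallest possible p lies above the threshold used for the gene tests. The permutation test therefore cannot decide whether the balance of the pair differed.

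Of the basic helix-loop-helix factors, Tal1 had the lowest log2 change of the 10 genes. TAL1 is needed to form all blood cells and later for red cell maturation. Tal1 had 690, 684 and 617 CPM in KO livers, against 947, 742 and 910 CPM in WT livers. The groups did not overlap, and WT replicate 2 was the WT library nearest to KO. Its log2 change was -0.38 (interval -0.69 to -0.08), and the edgeR adjusted p of 0.200 after Benjamini-Hochberg adjustment did not pass.

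Tal1 passed the threshold in 3 of the 13 alternatives. Without WT replicate 2 the log2 change was -0.48 and the edgeR adjusted p 0.0219, in a comparison where 9.77% of genes were called and 6.61% were called lower. Leaving out that library and KO replicate 6 gave an edgeR adjusted p of 0.0178. Leaving out KO replicate 6 alone gave a log2 change of -0.34 and an edgeR adjusted p of 0.265. Without WT replicate 1, WT replicate 3, KO replicate 4 or KO replicate 5 the edgeR adjusted p was 0.232 to 0.522. A fit with hepatocyte marker level added as a covariate gave an edgeR adjusted p of 0.0198 at a log2 change of -0.35. That covariate raised the share of all genes called to 17.1%, and it also brought Lyl1 (edgeR adjusted p = 0.0378) and Cbfa2t3 (edgeR adjusted p = 0.0207) past the threshold. The direction of each of the 10 changes held in all 13 alternatives run.

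Lyl1, the close relative of TAL1 that shares many of its sites, had 130, 128 and 107 CPM in KO livers, against 156, 128 and 154 CPM in WT livers. WT replicate 2 was level with KO replicate 5, so the groups overlapped. This gave a log2 change of -0.26 (interval -0.54 to 0.02, edgeR adjusted p = 0.332 after Benjamini-Hochberg adjustment). Against Tal1 in the same library, Lyl1 had 18.8, 18.7 and 17.4 counts per 100 in KO replicates 4 to 6, and 16.5, 17.2 and 16.9 in WT replicates 1 to 3. All KO ratios were above all WT ratios. The difference of the log2 ratio was 0.12, and the two-sided exact permutation p of 0.1 is the smallest that 3 against 3 can give.

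Tcf3 encodes the E proteins E12 and E47, with which TAL1 and LYL1 pair to bind DNA. Tcf3 had 257, 237 and 213 CPM in KO livers, against 217, 196 and 226 CPM in WT livers. The groups overlapped, with KO replicate 6 below WT replicates 1 and 3. KO minus WT, the log2 change was 0.15 (interval -0.09 to 0.39, edgeR adjusted p = 0.570 after Benjamini-Hochberg adjustment). The E protein relative Tcf12 had 107 ± 1.21 CPM in KO and 96.0 ± 5.36 CPM in WT, a log2 change of 0.15. Id2, an inhibitor that sequesters E proteins, had 42.7 ± 13.7 CPM in KO and 42.5 ± 19.6 CPM in WT. None of the 5 tested genes in the list of E protein partners and inhibitors passed by edgeR or DESeq2, nor at an unadjusted edgeR p under 0.05 (0 of 5).

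The bridging proteins pointed in different directions. Lmo2 had 400, 425 and 365 CPM in KO livers, against 561, 400 and 496 CPM in WT livers. The groups overlapped because WT replicate 2 was at the level of KO replicate 4. The fitted log2 change was -0.29 (interval -0.64 to 0.05, edgeR adjusted p = 0.387 after Benjamini-Hochberg adjustment).

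Ldb1 had 365, 311 and 307 CPM in KO livers, against 296, 245 and 332 CPM in WT livers. WT replicate 3 lay above 2 of the 3 KO libraries. The log2 change was 0.17 (interval -0.16 to 0.50, edgeR adjusted p = 0.654 after Benjamini-Hochberg adjustment). Ldb1 shares 177 bases of exon with Pprc1 on the opposite strand, and the strand setting of the counting is not stated. Pprc1 had 105 CPM in KO and 114 CPM in WT.

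Zfpm1 encodes FOG1, the cofactor that GATA1 needs for most of its activation and repression. Zfpm1 had 400, 381 and 349 CPM in KO livers, against 390, 319 and 347 CPM in WT livers. The groups overlapped over most of their range, with a log2 change of 0.10 (interval -0.16 to 0.36, edgeR adjusted p = 0.800 after Benjamini-Hochberg adjustment). Gfi1b, a zinc finger repressor that works with the demethylase LSD1 in red cell and platelet precursors, had 147, 116 and 118 CPM in KO livers, against 162, 113 and 157 CPM in WT livers. WT replicate 2 was the lowest of the 6, and the log2 change was -0.18 (interval -0.58 to 0.22, edgeR adjusted p = 0.713 after Benjamini-Hochberg adjustment).

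Cbfa2t3 encodes ETO2, the corepressor that keeps the complex silent at late red cell genes before maturation. Cbfa2t3 had 47.4, 41.8 and 46.8 CPM in KO livers, against 35.4, 31.6 and 40.8 CPM in WT livers. Every KO library was above every WT library, though KO replicate 5 and WT replicate 3 were close. The log2 change was 0.34 (interval 0.06 to 0.61), and the edgeR adjusted p of 0.218 after Benjamini-Hochberg adjustment did not pass. An antisense gene, Gm10612, overlaps its exons by 295 bases and had 0.216 CPM in KO and 0.0467 CPM in WT.

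**Figure D2:**
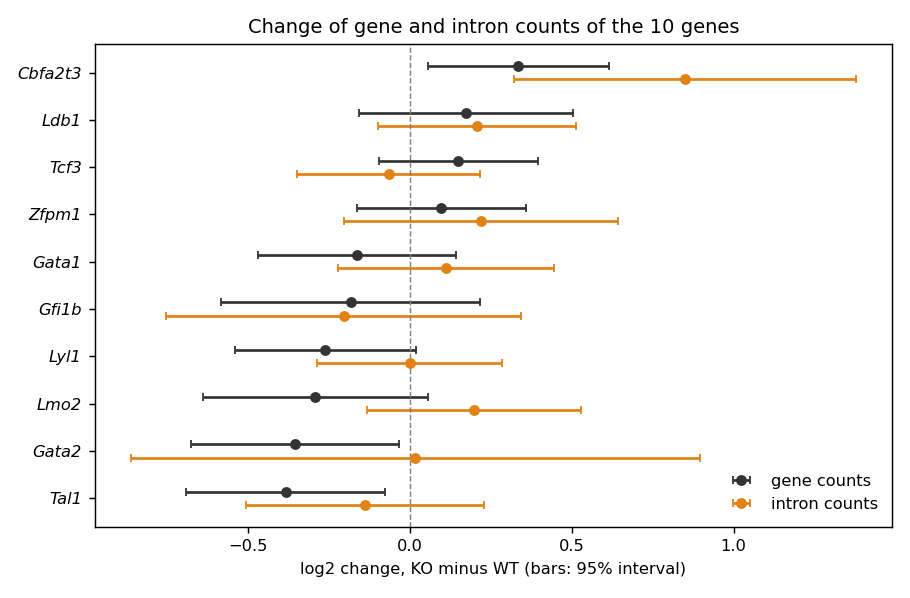
Log2 change (KO minus WT) of gene counts in black and of intron counts in orange, with 95% intervals, for the 10 genes ordered by gene count change. The gene count intervals of Tal1, Gata2 and Cbfa2t3 exclude 0, and among intron counts that of Cbfa2t3 does, at 0.85.

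Levels of the genes can be set against each other only per kilobase of exon (RPKM). In WT livers the order was Lmo2 (224 ± 37.4), Tal1 (198 ± 24.9), Gata1 (130 ± 19.2), Zfpm1 (100.5 ± 10.3), Lyl1 (81.1 ± 8.77), Gfi1b (78.7 ± 14.8), Ldb1 (63.2 ± 9.48), Tcf3 (52.7 ± 3.86), Cbfa2t3 (4.29 ± 0.55) and Gata2 (1.58 ± 0.15), as mean RPKM ± SD (n = 3). The ranges over libraries separated Tal1 from Gata1, Zfpm1 from Lyl1, Tcf3 from Cbfa2t3 and Cbfa2t3 from Gata2, and all other neighbours overlapped. In KO livers Lmo2 (183 ± 14.0 RPKM) stood above Tal1 (152 ± 9.25 RPKM), and Tal1 above Gata1 (116 ± 6.63 RPKM), each without overlap. In the mean over all libraries, Lmo2 was at the 98.3 percentile of 13520 tested genes with a length, Cbfa2t3 at 49.9 and Gata2 at 28.8. The corepressor and the progenitor GATA factor were thus far below the other 8 genes in both genotypes.

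The make-up of the set was also described within each library, as the share of each gene in the summed per-length level of the 10. This view was chosen after the values were seen, so it carries no test, and in a closed sum a lower share of one gene raises the others. Tal1 took 17.9%, 18.5% and 18.3% in KO replicates 4 to 6, against 21.1%, 21.4% and 21.1% in WT replicates 1 to 3. The WT values lay within 1 percentage point of each other, although WT replicate 2 had the lowest Tal1 level in CPM. Zfpm1 took 13.0%, 12.9% and 12.9% in KO, against 10.9%, 11.5% and 10.1% in WT. Cbfa2t3 took 0.642%, 0.592% and 0.726% in KO, against 0.412%, 0.476% and 0.496% in WT.

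The shares of 7 of the 10 genes did not overlap between groups, against 30.3% of all tested genes when each was set against the same sum. That is not a like background, because the 10 genes are parts of the sum and the other genes are not. The count of 7 is thus a description and not an excess. Ldb1 and Tcf3 were higher in KO as well, at 8.01% to 8.98% in KO against 6.27% to 7.32% in WT for Ldb1 and 6.87% to 7.22% in KO against 5.23% to 6.11% in WT for Tcf3. Lyl1 and Lmo2 were lower in KO by a narrow margin, Lyl1 at 7.74% to 8.43% in KO against 8.47% to 8.96% in WT. Lmo2 reached 23.27% in both KO replicate 5 and WT replicate 3, which separate only beyond that digit. Gata1, Gata2 and Gfi1b overlapped.

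**Figure D3:**
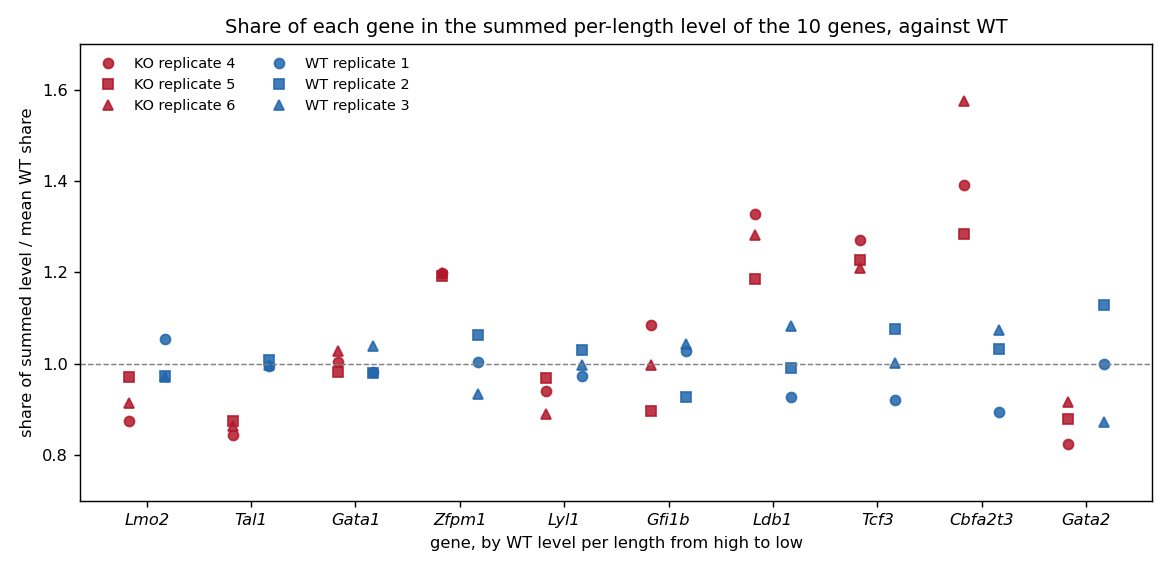
Share of each gene in the summed per-length level of the 10 genes in a library, divided by the mean WT share (dashed line at 1), KO points left of WT points for each gene. KO points lie above all WT points for Zfpm1, Ldb1, Tcf3 and Cbfa2t3 and below them for Tal1, while Gata1, Gfi1b and Gata2 mix.

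The extremes of these differences in share were Cbfa2t3 and Tal1, and their ratio was likewise taken after the values were seen. Cbfa2t3 had 6.87, 6.11 and 7.58 counts per 100 of Tal1 in KO replicates 4 to 6, against 3.74, 4.26 and 4.49 in WT replicates 1 to 3. The log2 ratio was -3.87 ± 0.16 in KO and -4.59 ± 0.14 in WT (SD, n = 3 each), a difference of 0.72. It was 0.64 to 0.80 when each library was left out in turn and 0.80 on exon plus intron counts.

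Intron counts, which stand mainly for unspliced RNA, gave 0 of 10 called by edgeR (0.72% of 11803 genes) and 0 by DESeq2, with 1 of 10 at an unadjusted p under 0.05 by edgeR, against 10.8% of all genes. That gene was Cbfa2t3. It had 103, 80.0 and 84.0 intronic CPM in KO livers, against 66.9, 42.9 and 38.3 intronic CPM in WT livers. All KO libraries were above all WT libraries. The log2 change of 0.85 (interval 0.32 to 1.38, edgeR adjusted p = 0.202 after Benjamini-Hochberg adjustment) had the same sign as in the gene counts. Gm20388 on the opposite strand and the pseudogene Gm15899 on the same strand overlap the Cbfa2t3 interval without sharing exon bases. Their part in these intron counts was not tested.

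Tal1 introns, in contrast to its gene counts, overlapped between groups, with 1098, 952 and 875 intronic CPM in KO and 1225, 1056 and 943 intronic CPM in WT. Their log2 change was -0.14 (interval -0.51 to 0.23). Lmo2 introns had 3026, 2894 and 2902 intronic CPM in KO livers, against 2575, 2669 and 2448 intronic CPM in WT livers. The groups did not overlap, and the sign was opposite to that of the Lmo2 gene counts, with a log2 change of 0.20 (interval -0.13 to 0.53, edgeR adjusted p = 0.725 after Benjamini-Hochberg adjustment). Cbfa2t3 and Lmo2 were the 2 of 10 genes whose intron counts did not overlap, against 17.5% of all genes.

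Lmo2 also had a high intronic share. Its introns took 54.0% to 64.7% of its exonic plus intronic counts in KO and 47.8% to 59.1% in WT, where the median gene had 17.0% to 21.9% in KO and 17.5% to 26.0% in WT. An uncharacterised gene, 4931422A03Rik, lies on the opposite strand of the Lmo2 interval without sharing exon bases, at 0.284 CPM in KO and 0.325 CPM in WT. Gata2 introns held only 22 to 75 counts per library, too few to place the change (interval -0.86 to 0.90).

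The test of the exonic against the intronic change called 0 of 10 genes by edgeR with Benjamini-Hochberg adjustment, 0 of 11100 genes in all, and 0 of 10 by DESeq2. At an unadjusted p under 0.05 it found 0 of 10 by edgeR, against 3.17% of all genes. The exonic change was below the intronic one for 8 of the 10 genes, with a median of -0.25 against -0.06 for all genes. The lowest values were -0.54 for Cbfa2t3 (SE 0.26) and -0.48 for Lmo2 (SE 0.26), and the highest was 0.21 for Tcf3. A change on the exonic side alone was therefore not detectable for any of the 10 genes.

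**Figure D4:**
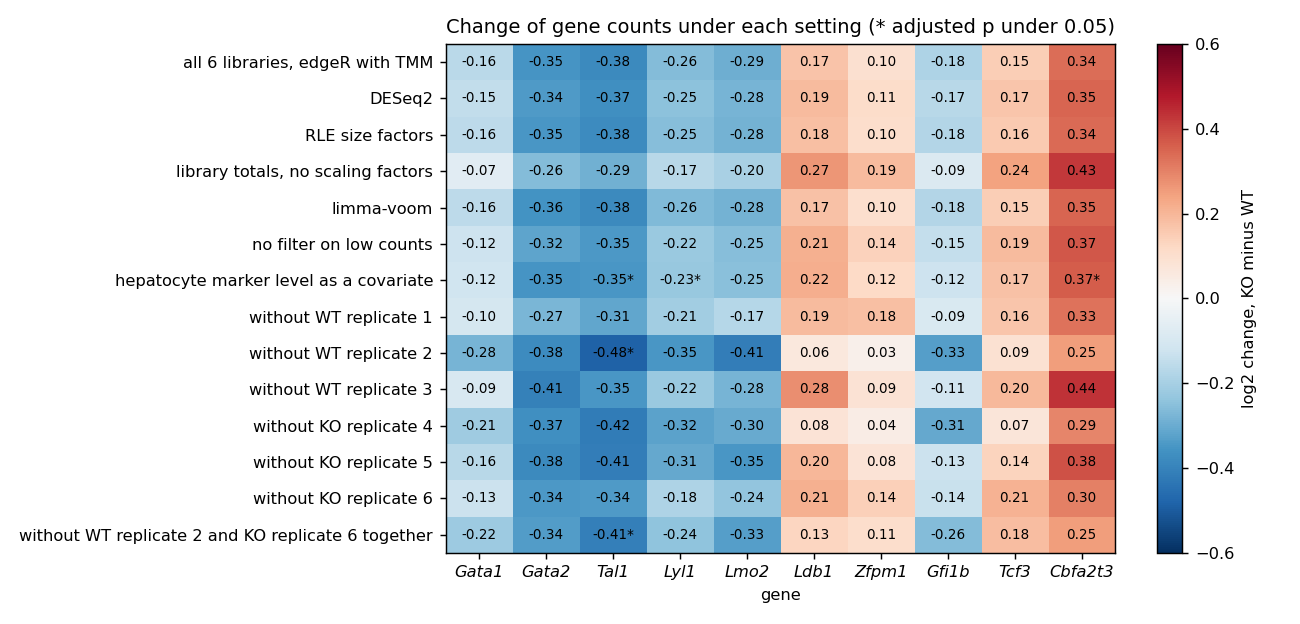
Log2 change (KO minus WT) of the gene counts of the 10 genes (columns) under 14 settings, with all 6 libraries by edgeR at the top (red above 0, blue below 0, asterisk at an adjusted p under 0.05). No gene changes colour between settings, and asterisks stand for Tal1 in 3 settings and for Lyl1 and Cbfa2t3 with the hepatocyte covariate.

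Among genes known to be activated by GATA1 in red cells, several fell in KO livers. Of 29 tested genes on this list, 7 fell and 0 rose past the edgeR adjusted p of 0.05, where 1.45% of all genes fell and 1.83% rose. DESeq2 called 16 lower and 1 higher, against 7.36% of its genes in either direction. The list median log2 change was -0.49, against -0.03 for all tested genes. The list was chosen with earlier results of these data known, and it holds the members Tal1, Zfpm1 and Gfi1b as well as Mir144 and Mir451 themselves, so the deleted genes account for 2 of the 7.

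Of the other genes that fell, the most abundant was Xpo7, an exportin that red cells use to condense their nuclei, with 636, 852 and 700.5 CPM in KO livers, against 2247, 1695 and 1879 CPM in WT livers. KO values lay far below all WT values, and the log2 change was -1.41 (edgeR adjusted p = 0.0180 after Benjamini-Hochberg adjustment). Epb4.2, which encodes the membrane skeleton protein 4.2, averaged 687 ± 21.6 CPM in KO and 1128 ± 169 CPM in WT. Trim10, a RING finger protein known for a role in red cell maturation, averaged 495 ± 26.3 CPM in KO and 936 ± 143 CPM in WT. E2f2, a cell cycle factor of late erythroblasts, averaged 447 ± 51.7 CPM in KO and 875 ± 157 CPM in WT. Their log2 changes were -0.72, -0.92 and -0.97. Xpo7 shares 39 exon bases with Npm2 in the annotation, so part of its reads are uncertain. Each of these 4 calls was lost without any one library other than WT replicate 2, and that of Epb4.2 also without the filter on low counts, with edgeR adjusted p of 0.0516 to 0.198. The fifth was Bcl2l1, the survival gene for BCL-XL, named here after its value was seen to complete the count.

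The number of GATA1-activated genes that fell moved with single libraries. It was 18 without WT replicate 2, where 6.61% of all genes fell, and 17 when KO replicate 6 was left out too. It was 2 without WT replicate 3 or KO replicate 6, and 1 without WT replicate 1, KO replicate 4 or KO replicate 5. Calls over all genes also dropped in these fits, with 219 genes lower when all 6 libraries were used. Without WT replicate 3 or KO replicate 6, 9 and 44 genes were called lower in all. Without WT replicate 1, KO replicate 4 or KO replicate 5, 8, 12 and 7 were. The counts for the list are of the list that still holds the deleted Mir144 and Mir451 and the members Tal1, Zfpm1 and Gfi1b. In the settings that gave 1 or 2, the calls of Xpo7, Epb4.2, Trim10 and E2f2 were all lost. The summed erythroid markers, given above, were lower in KO without overlap, and their part in these changes was not tested. Among those 8 markers, Tfrc, the transferrin receptor, fell (2212 ± 86.9 CPM in KO against 3935 ± 326 CPM in WT, edgeR adjusted p = 0.0336 after Benjamini-Hochberg adjustment), and 7 of the 8 were lower at an unadjusted p under 0.05, against 8.78% of all genes. The Tfrc call was lost without the filter on low counts and without any one library other than WT replicate 2.

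The opposite list holds genes known to be repressed by GATA1 in progenitor-like red cells. None of its 16 tested genes passed by edgeR or DESeq2. At an unadjusted edgeR p under 0.05, 0 were higher and 5 lower, against 7.77% and 8.78% of all genes, and the list median was -0.25. Gata2 and Lyl1 are on this list. Kit, the stem cell factor receptor that GATA1 turns off, had 98.0, 102 and 110 CPM in KO livers, against 116, 104 and 111 CPM in WT livers. The groups overlapped, with a log2 change of -0.10 (edgeR adjusted p = 0.641 after Benjamini-Hochberg adjustment). Of 15 tested genes linked to GATA2 in progenitors and mast cells, 0 passed by edgeR and 1 was lower by DESeq2, while at an unadjusted edgeR p under 0.05 there were 1 higher and 2 lower. That is near the 16.6% of all genes at this level in either direction, and DESeq2 called 7.36% of its genes. Hdc, the histamine-forming enzyme of mast cells and basophils, had 15.9 ± 1.53 CPM in KO and 23.2 ± 2.78 CPM in WT without overlap (log2 change -0.54, edgeR adjusted p = 0.0929 after Benjamini-Hochberg adjustment).

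Of 30 other subunits and cofactors that bind the complex, 1 rose and 0 fell by edgeR, and DESeq2 called 2 higher and 1 lower. These counts are near the shares of all genes called, 3.28% by edgeR and 7.36% by DESeq2 in either direction. The list median was 0.03, against -0.03 for all tested genes. The gene that rose was Mta1, a subunit of the NuRD repressor that FOG1 recruits. Mta1 had 97.2, 93.8 and 90.0 CPM in KO livers, against 74.6, 62.7 and 69.1 CPM in WT livers. All KO libraries were above all WT libraries, with a log2 change of 0.45 (edgeR adjusted p = 0.0476 after Benjamini-Hochberg adjustment). That call was lost with limma-voom, without the filter on low counts, and without any one library other than WT replicate 2. The other 29 partners, among them the LSD1, CoREST, NuRD, p300 and single-stranded DNA-binding subunits, did not pass.

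Among 21 other erythroid transcription factors, 3 fell and 0 rose by edgeR, where 1.45% of all genes fell and 1.83% rose. DESeq2 called 5 lower and 3 higher, against 7.36% of its genes in either direction. Klf3, a repressor whose gene KLF1 activates in red cells, had 110, 108 and 106 CPM in KO livers, against 231, 191 and 202 CPM in WT livers. The groups lay far apart, with a log2 change of -0.94 (edgeR adjusted p = 0.0113 after Benjamini-Hochberg adjustment). Mafg, a small MAF partner of NFE2, had 114 ± 3.56 CPM in KO and 179 ± 19.7 CPM in WT, a log2 change of -0.65, and E2f2 was the third. The 10 genes of the complex lay between -0.38 and 0.34. In the GRCm38 annotation Klf3 shares 404 exon bases with Gm20033 on the opposite strand, and Mafg shares 124 with Sirt7, so reads in these stretches are uncertain. Klf3 passed without KO replicate 4 or KO replicate 6 and lost its call without WT replicate 1, WT replicate 3 or KO replicate 5, and Mafg lost its call without any one library other than WT replicate 2. Without WT replicate 2 the count of these factors that fell was 9, in a fit where 6.61% of all genes fell, against 1.45% with all 6 libraries. It was 1 without KO replicate 4 or KO replicate 6, in fits where only 12 and 44 of all genes were called lower. It was 0 without WT replicate 1, WT replicate 3 or KO replicate 5, where only 8, 9 and 7 of all genes were.

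**Figure D5:**
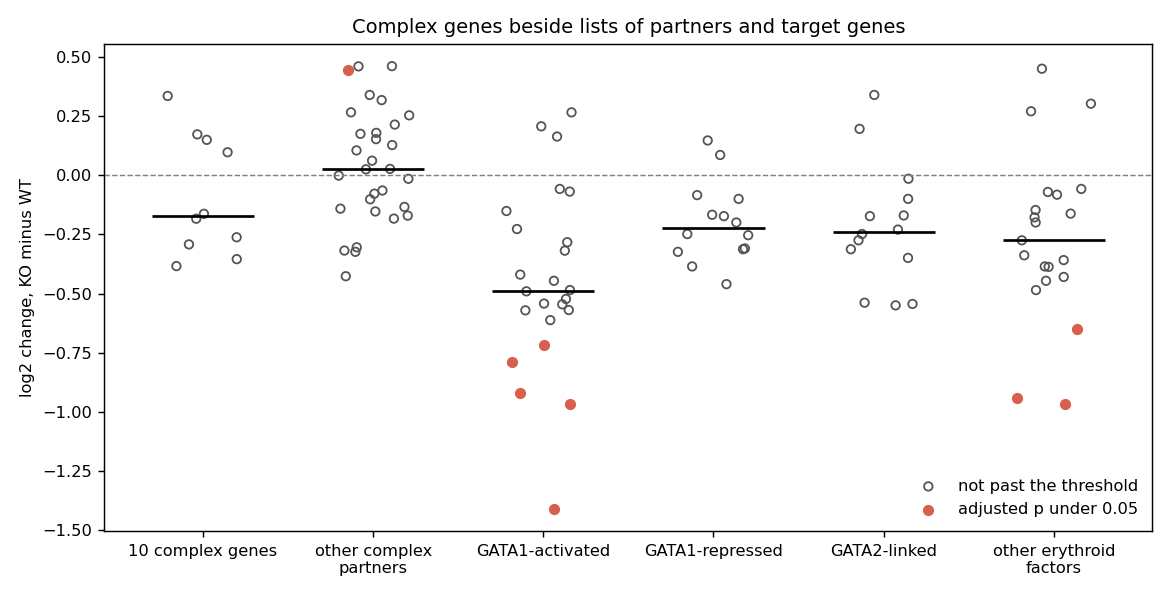
Log2 change (KO minus WT) of gene counts for the 10 complex genes and 5 lists, 1 point per gene, filled where the adjusted p is under 0.05, with a line at each median. The 10 genes are left out of the other lists, as are Mir144 and Mir451. The medians are -0.17 for the 10 genes, 0.03 for 30 other partners, -0.49 for 24 GATA1-activated genes, -0.22 for 14 GATA1-repressed genes, -0.24 for 14 GATA2-linked genes and -0.27 for 21 other erythroid factors.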

How the data were processed

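The authors deposited raw counts per gene symbol and, for 15543 genes, exon and intron counts, whose exon part equals the gene counts. Globin and mitochondrial genes had been removed, per the file headers and names. STAR, HTSeq and the builds NCBIM37 and mm10 are named in the submitters' processing notes. The sources used here give neither the strand setting nor the intron definition. The 10 genes and all lists were chosen with earlier results of these data known. Counts were TMM-scaled and tested KO against WT by edgeR 4.0.16 (quasi-likelihood, filterByExpr, Benjamini-Hochberg, threshold 0.05) in R 4.3.3. The same test was applied to intron counts and to the region by genotype interaction with a term per library. Ratios use a pseudocount of 0.5. DESeq2 1.42.0 and limma 3.58.1 served as alternatives. All 10 genes, the deleted microRNA genes and up to 4 called genes per list, or the 2 most abundant where none was called, were to be named, but the hepatocyte, macrophage, megakaryocyte, endothelial, progenitor and neutrophil marker lists are given as sums only, and Mcpt8 and Cd34 are not described. The rule takes Hdc, Tfrc and Tcf12 through the marker and partner lists. Of 145 list symbols 144 were found, 4 by an older name. Exon lengths and UTRs are from GENCODE, GRCm38. The code was checked on simulated counts.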

Additional observations from a re-analysis of the deposited data

How the results depend on the processing

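No paired analysis was possible because WT and KO libraries share no replicate number. All 13 alternatives kept the sign of the 10 gene count changes. Called members were 1 higher and 2 lower with the hepatocyte covariate, 0 to 1 lower when 1 library was left out, and 1 lower without WT replicate 2 and KO replicate 6. Over all genes, edgeR called 276 higher and 219 lower. DESeq2 called 543 and 501, library totals without scaling gave 551 higher, and the covariate gave 1282 and 1297. Leaving out 1 library gave 5 to 483 higher and 7 to 1012 lower, and leaving out WT replicate 2 and KO replicate 6 gave 580 and 838. The causes were not tested. Without scaling, the median change of all genes was 0.06.

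Small intronic changes, none of them called, reversed in places. Without WT replicate 2 and KO replicate 6, Gata1 was -0.059 and Gata2 -0.29. Gata2 was -0.011 with DESeq2 and -0.015 with no filter. Leaving out 1 library gave -0.28 to 0.34 for Gata2, -0.091 to 0.036 for Lyl1 and -0.39 to 0.0057 for Gfi1b. The exonic minus intronic change of Ldb1 was 0.014 with DESeq2. Leaving out 1 library gave -0.13 to 0.18 for Ldb1, -0.25 to 0.066 for Zfpm1 and -0.10 to 0.31 for Gfi1b. The 2 planned ratios kept their sign in all alternatives run. Counts per library were 190 to 315 for Gata2 and at least 983 for each other gene of the 10. What limits the precision of their changes was not tested.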
